A study of Mus musculus with 203 samples.

Results

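A set of 9 genes of blood clotting and clot breakdown, of the 25094 genes listed for RAW cells, was followed in macrophages treated with interleukin 4 (IL4). They were taken by gene symbol: the clotting genes F3, F7, F10 and F13a1, the crosslinking enzyme gene Tgm2, the matrix protein gene Thbs1, and the plasminogen activation genes Plau, Plaur and Serpinb2. RNA-seq was made from RAW264.7 cells, a mouse macrophage line labelled as strain BALB/c, in 4 groups of 4 libraries. The cells carried a lentiviral short hairpin RNA in the pLKO.1 vector, directed at GFP (shGFP, the control) or at Kdm1a (shKDM1A), and each was left without IL4 or given 20 ng/ml of IL4 for 6 h. Control cells therefore carried a vector and a hairpin too, both lines had been selected with puromycin, and 1 hairpin was used against Kdm1a. All 9 genes are also listed among the 16478 genes of the bone marrow-derived macrophage (BMDM) experiment on Gps2 KO cells, for which only the authors' own comparisons were at hand. BMDM values are not used here.

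Clotting starts when tissue factor, encoded by F3, meets factor VII, encoded by F7, on a cell surface. The pair activates factor X (F10), which forms thrombin from prothrombin, and thrombin makes fibrin, which the transglutaminase factor XIII (A subunit, F13a1) crosslinks. Fibrin is dissolved by plasmin, which urokinase (Plau) forms from plasminogen at the cell surface while held by its receptor (Plaur). Serpinb2 encodes plasminogen activator inhibitor 2, an inhibitor of urokinase. Thbs1 encodes thrombospondin 1, a platelet and matrix glycoprotein. Macrophages can make most of these proteins. Tgm2 and F13a1 are widely used markers of alternatively activated macrophages, the state that IL4 brings about through the transcription factor STAT6. KDM1A removes methyl groups from histone lysines.

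The deposited values are on a log2 scale on which the values of a lowly expressed gene are drawn together across libraries, so that fold changes of such genes are understated. Each comparison was tested with limma across the 12905 genes that reached 1 on this scale in 4 or more libraries, and a gene is said to have risen or fallen only at an adjusted p under 0.05. Totals per library ran from 17554721 to 27782568 tags. Kdm1a itself lay between 11.07 and 11.23 in the 8 shGFP libraries and between 10.23 and 10.36 in the 8 shKDM1A libraries. It fell by 0.88 on the log2 scale without IL4 and by 0.79 with IL4 (limma adjusted p = 5.62e-13 and 2.2e-12), leaving 0.542 and 0.580 of the control level. Of 8 macrophage markers 7 passed the filter, Mertk being the exception, while all 4 hepatocyte, 4 fibroblast, 3 T cell and 3 B cell markers were at or below 0. Markers of megakaryocytes and platelets (3 of 5) and of endothelium (2 of 4) passed the filter at low levels, their sums reaching 4.14 and 2.92 in the highest library. The summed macrophage markers spanned 17.44 to 17.50 in untreated shGFP cells, 17.18 to 17.21 with IL4, 17.68 to 17.71 in untreated shKDM1A cells and 17.62 to 17.72 with IL4, and their part in the results below was not tested. This sum was carried by Lyz2, which fell by 0.53 with IL4 in shGFP cells, while Csf1r rose by 0.26 and Adgre1 by 1.24 there (limma adjusted p = 7.36e-10, 2.29e-08 and 4e-13). IL4 raised 2 and lowered 2 of the 7 tested markers in shGFP cells and raised 3 and lowered 2 in shKDM1A cells, where 26.9% and 27.1% of all tested genes were called. In shKDM1A cells 5 were higher and 2 lower both without and with IL4, beside 38.2% and 40.7% of all tested genes. In bulk RNA, fewer cells expressing a gene and less RNA per cell cannot be told apart. The study's methods call the replicates of its experiments biological in general, without saying whether the 4 libraries of each group here came from separate cultures, and p-values measure the spread between these libraries.

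Of the 9 genes, 5 passed the filter on low values: Plau, Plaur, Tgm2, F10 and F7. F3 stayed between -0.57 and -0.54 and F13a1 between -2.27 and -2.26 in all 16 libraries. Thbs1 and Serpinb2 were listed at 0 in every library, as were 8488 genes in all. Since other genes had values down to -2.27, an unvarying 0 is not read here as a level above negative values such as those of F3 and F13a1. No change was tested for these 4 genes in the main fit. An alternative with no filter, given at the end, also covered F3 and F13a1. RAW cells thus had values above the filter for the activator and its receptor, and for factors VII and X, whereas the initiating receptor of clotting and the classical marker F13a1 were under it.

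Sequence just before the start of a gene is shown for the 3 tested genes that had an entry, F7, F10 and Plaur, and for F3, which shares a match with Plaur. These are RefSeq windows (GRCm38.p6, plus strand) of the 250 bases before the annotated start. Of the 9 genes, 6 had such an entry; Plau, Tgm2 and Thbs1 had none. Capitals mark matches on either strand to the AP-1 motif TGACTCA (whose reverse complement TGAGTCA is the same motif on the other strand), the ETS/PU.1 core GAGGAA, or the STAT motif, TTC and GAA with 3 or 4 bases between them. F3 is at chr3:121723287-121723536, Plaur at chr7:24462233-24462482, F7 at chr8:13025784-13026033 and F10 at chr8:13037058-13037307.
Plaur: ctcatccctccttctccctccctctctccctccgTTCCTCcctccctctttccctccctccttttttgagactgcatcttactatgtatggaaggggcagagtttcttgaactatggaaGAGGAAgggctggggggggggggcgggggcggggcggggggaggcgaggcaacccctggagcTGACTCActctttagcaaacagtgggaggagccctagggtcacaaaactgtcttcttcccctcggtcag
F3: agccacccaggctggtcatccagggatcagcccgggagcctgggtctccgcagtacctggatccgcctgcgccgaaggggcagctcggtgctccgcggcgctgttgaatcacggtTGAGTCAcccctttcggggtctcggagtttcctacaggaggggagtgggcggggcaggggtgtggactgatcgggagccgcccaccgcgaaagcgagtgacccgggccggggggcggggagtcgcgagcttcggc
F7: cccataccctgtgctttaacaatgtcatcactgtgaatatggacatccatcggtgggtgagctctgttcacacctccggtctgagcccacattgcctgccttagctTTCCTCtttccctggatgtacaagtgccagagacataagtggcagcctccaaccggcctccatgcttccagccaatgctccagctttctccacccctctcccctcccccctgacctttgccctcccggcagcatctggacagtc
F10: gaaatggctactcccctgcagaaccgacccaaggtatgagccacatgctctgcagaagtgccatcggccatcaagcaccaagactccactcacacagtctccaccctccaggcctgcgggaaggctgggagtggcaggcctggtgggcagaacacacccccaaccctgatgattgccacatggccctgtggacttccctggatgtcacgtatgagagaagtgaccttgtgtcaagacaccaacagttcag
Plaur had an AP-1 match from 69 to 63 bases before its start, beside an ETS match at 131 to 126 and another at 216 to 211. F3 had an AP-1 match at 135 to 129 bases, and F7 an ETS match at 144 to 139. F10 had no match to any of these letters in this window. Among 32851 windows of the same length, 4.46% held the AP-1 motif, 23.3% the ETS core, 7.02% the STAT motif with 3 bases between and 5.85% that with 4. Of the 8 windows found for the set, 1 of the 2 for Serpinb2 held a STAT match, at 77 to 69 bases, and 1 of the 2 for F13a1 held an ETS match, at 66 to 61.

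In the mm9 coordinates of the files, F7 (chr8:13026034-13035805) and F10 (chr8:13037308-13056676) lie head to tail on the plus strand with 1502 bases between them. Plau is at chr14:21655884-21662610 and Plaur at chr7:25247502-25260987, both on the plus strand. Tgm2 is on the minus strand at chr2:157942141-157972128. Of its 4608 exonic bases in GENCODE vM1, 1003 (21.8%) also lie in exons of Rprd1b or RP23-396G1.3 on the other strand. Reads were counted without regard to strand, so the share of Tgm2 reads that came from there cannot be told apart. Rprd1b itself lay between 10.41 and 10.58 in all 16 libraries, and none of its changes passed the test (adjusted p from 0.27 to 0.996 in limma). No exon of another gene overlapped those of the other 8 genes.

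Per kilobase of transcript, the 5 tested genes kept 1 order in every group: Plau, Plaur, Tgm2, F10, F7. Plau had a log2 level per kilobase of 10.94 ± 0.079 (SD, n = 4) in untreated shGFP cells, above 93.2% of tested genes. Plaur followed at 9.52 ± 0.043, above 80.9% of genes. Tgm2, at 5.45 ± 0.024, stood far lower, above 25.0% of genes. F10 had 2.14 ± 0.022 and F7 had 0.78 ± 0.0097, above 8.78% and 4.12% of genes. Neighbours in this order were more than 1 log2 unit apart in each group, well beyond the spread between libraries. The urokinase pair was thus expressed at a high level, and the clotting proteases at a low one.

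**Figure D1:**
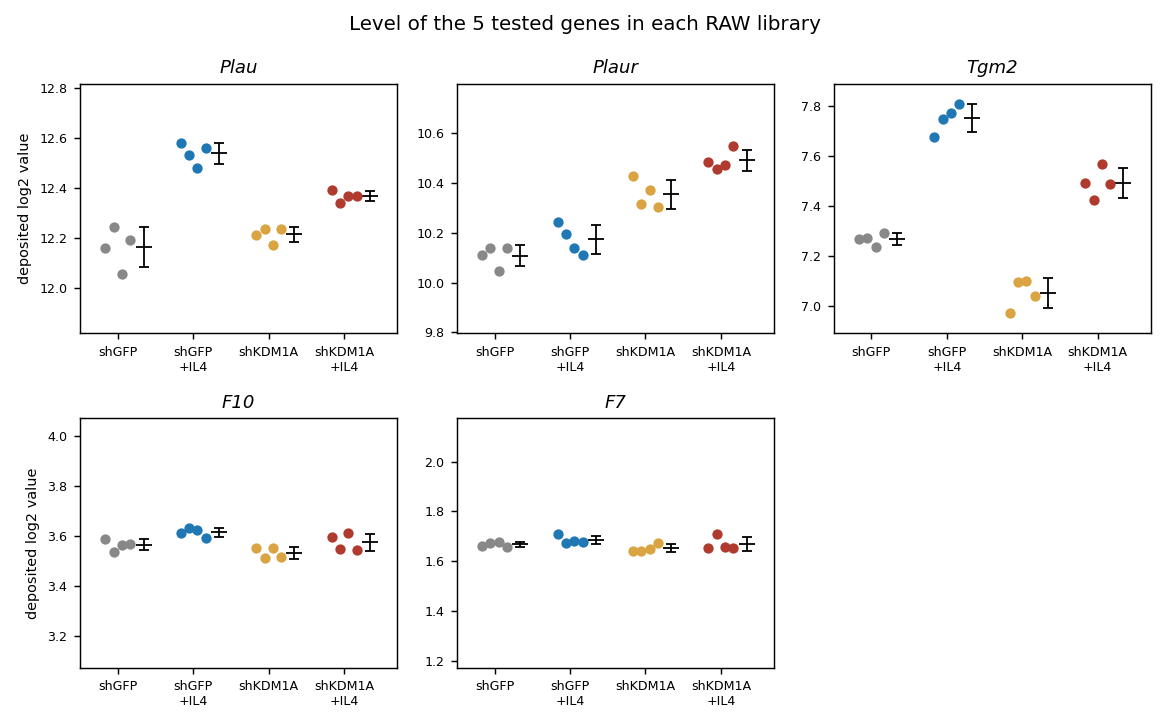
Deposited log2 value (vertical axis) of the 5 tested genes in each of the 16 RAW libraries (points), with the group mean and SD (n = 4) beside them, for shGFP and shKDM1A cells without and with IL4; every panel spans at least 1 log2 unit. Tgm2 and Plau step up with IL4, Plaur sits higher in shKDM1A cells, and F10 and F7 stay within 0.124 and 0.0674 of their own lowest library.

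The first comparison asked what IL4 did in control cells. IL4 raised Tgm2 1.40-fold and Plau 1.30-fold in shGFP cells, and the other 3 tested genes did not pass the test. Across all genes tested, 26.9% were called in this comparison (13.1% higher and 13.7% lower), against 2 of the 5 members, both higher.

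Tgm2, which crosslinks proteins through glutamine and lysine side chains, had values of 7.27, 7.27, 7.24 and 7.29 in the untreated shGFP libraries and of 7.68, 7.75, 7.77 and 7.81 with IL4. Every IL4 library lay above every untreated one. The log2 fold change was 0.49 (SE 0.035, limma adjusted p = 1.62e-08). For Plau the untreated values were 12.16, 12.24, 12.06 and 12.19, and those with IL4 were 12.58, 12.53, 12.48 and 12.56. The groups again did not overlap, and the log2 fold change was 0.38 (SE 0.033, limma adjusted p = 2.19e-07). Its receptor Plaur had values of 10.11, 10.14, 10.05 and 10.14 without IL4 and of 10.24, 10.20, 10.14 and 10.11 with it. These groups overlapped, and the log2 difference of 0.06 (95% interval -0.0087 to 0.14) did not pass (adjusted p = 0.196, limma).

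F10 lay between 3.54 and 3.59 in untreated shGFP libraries and between 3.59 and 3.63 with IL4. The 4 IL4 libraries were all above the 4 others, if narrowly, and the log2 difference of 0.05 (SE 0.021) missed the threshold (limma adjusted p = 0.0858). F7 lay between 1.66 and 1.68 without IL4 and between 1.68 and 1.71 with it, a difference of 0.02 (limma adjusted p = 0.497). In all, the values of 3 of the 5 genes did not overlap between the groups, where 28.3% of all tested genes had such values.

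In shKDM1A cells IL4 raised 3 of the 5 genes: Tgm2 1.36-fold, Plau 1.11-fold and Plaur 1.10-fold. Here 27.1% of all tested genes were called (13.6% higher and 13.5% lower), and the values of the same 3 genes did not overlap between groups, against 25.7% of all genes. Tgm2 went from 6.97, 7.09, 7.10 and 7.04 to 7.49, 7.42, 7.57 and 7.49, a log2 fold change of 0.44 (SE 0.035, limma adjusted p = 5.99e-08). Plau went from 12.21, 12.24, 12.17 and 12.24 to 12.39, 12.34, 12.37 and 12.37. Its 4 IL4 libraries were all higher, but the step of 0.15 (SE 0.033, limma adjusted p = 0.00219) was smaller than the one in shGFP cells. Plaur went from 10.43, 10.31, 10.37 and 10.30 to 10.48, 10.46, 10.47 and 10.55, with a log2 fold change of 0.14 (SE 0.035, limma adjusted p = 0.00739). F10 (0.04, adjusted p = 0.137) and F7 (0.02, adjusted p = 0.586) did not pass in limma, and their groups overlapped.

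Whether the response to IL4 itself differed between the 2 lines was tested as the difference of the 2 changes. Of all tested genes 6.13% were called (3.56% higher and 2.57% lower), and of the 5 members only Plau was: IL4 raised it less in shKDM1A than in shGFP cells, by a log2 difference of -0.22 (SE 0.047, 95% interval -0.32 to -0.12, limma adjusted p = 0.0107). The Tgm2 response differed by -0.04 (95% interval -0.15 to 0.060, adjusted p = 0.652 in limma) and that of Plaur by 0.07 (95% interval -0.033 to 0.17, adjusted p = 0.418). Plaur passed in shKDM1A and not in shGFP cells, yet its 2 responses were not shown to differ. For F10 and F7 the differences were -0.0066 (95% interval -0.068 to 0.055) and -0.0034 (95% interval -0.056 to 0.049), with no stable direction.

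**Figure D2:**
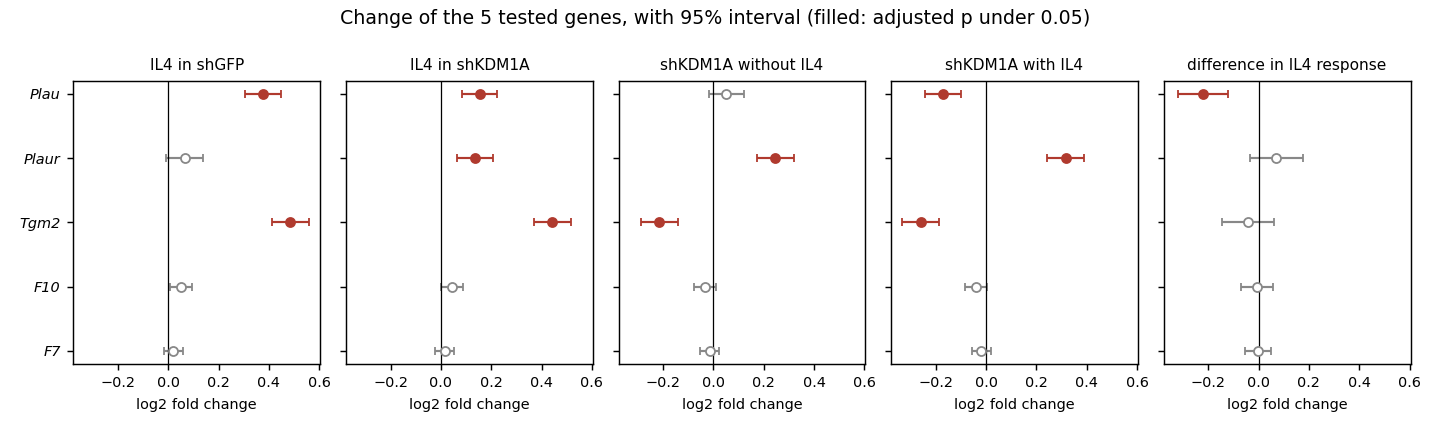
Log2 fold change (horizontal axis) of the 5 tested genes in the 5 comparisons, with 95% intervals from limma; filled symbols have an adjusted p under 0.05. Tgm2 lies above 0 for IL4 in both lines and below 0 for shKDM1A, Plaur lies above 0 for shKDM1A, and Plau is the single member with a filled symbol for the difference in IL4 response.

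The comparison of the 2 lines without IL4 asked how shKDM1A cells differed from shGFP cells before treatment. It shares the untreated libraries with the comparisons above. Tgm2 was lower in shKDM1A cells, at 0.861 of the control level, and Plaur was 1.19-fold higher. Of all tested genes 38.2% were called (19.7% higher and 18.4% lower), so that 2 of 5 members is a share close to the background. The 4 shKDM1A values of Tgm2 all lay below the 4 shGFP values given above, with a log2 fold change of -0.22 (SE 0.035, limma adjusted p = 0.000109). All 4 shKDM1A values of Plaur lay above those of shGFP cells, with a log2 fold change of 0.25 (SE 0.035, limma adjusted p = 2.78e-05). Values of these 2 genes alone among the 5 did not overlap, where 37.4% of all tested genes did not. Plau differed by 0.05 (95% interval -0.019 to 0.12, limma adjusted p = 0.246). F10 had 3.51 to 3.55 in untreated shKDM1A cells and F7 had 1.64 to 1.68, and neither passed (log2 differences of -0.03 and -0.02, limma adjusted p = 0.23 and 0.547).

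With IL4 in both lines, 3 of the 5 genes differed, against 40.7% of all tested genes (20.9% higher and 19.8% lower). Tgm2 was at 0.836 of the shGFP level, a log2 fold change of -0.26 (SE 0.035, limma adjusted p = 1.58e-05). Plau, which had not passed without IL4, was now lower at 0.888 of the shGFP level, a log2 fold change of -0.17 (SE 0.033, limma adjusted p = 0.000587). Plaur was again higher, 1.25-fold, with a log2 fold change of 0.32 (SE 0.035, limma adjusted p = 1.7e-06). The activator and its receptor thus differed in opposite directions between IL4-treated shKDM1A and IL4-treated shGFP cells. Their values and those of Tgm2 did not overlap between the lines, compared with 36.4% of all tested genes. F10 had 3.54 to 3.61 and F7 had 1.65 to 1.71 in these shKDM1A libraries, differing from shGFP by -0.04 (adjusted p = 0.139) and -0.02 (adjusted p = 0.431) in limma.

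Ordered by group, Tgm2 was highest in shGFP cells with IL4, followed by shKDM1A cells with IL4, untreated shGFP cells and untreated shKDM1A cells, and no 2 neighbours overlapped. Plau was highest in shGFP cells with IL4 and next in shKDM1A cells with IL4, while the 2 untreated groups overlapped. Plaur was highest in shKDM1A cells with IL4, then in untreated shKDM1A cells, and the 2 shGFP groups overlapped. No member changed by more than 0.5 on the log2 scale in any comparison.

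Across the 16 libraries, the profile of Tgm2 was most like those of Igf1 (Pearson r = 0.986) and Cxcl14 (0.984). Plau was most like Rnf180 (r = 0.968) and Cish (0.963), and Plaur most like Cdkn1a (r = 0.960) and Cenpb (0.957). For F10 the nearest were Npepl1 (r = 0.897) and Vps4b (0.888), and for F7 Brpf3 (r = 0.862) and Mob3b (0.809). Among the members, Tgm2 and Plau were the most alike (r = 0.868), and Plau and Plaur were nearly unrelated (r = 0.0878). These are descriptions over libraries that share groups and treatments.

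Other genes of the fibrinolytic system gave 5 tested genes of 13 listed. Plg, which encodes plasminogen, was listed at 0 in all libraries, and Plat, the tissue-type activator, stayed between -0.05 and -0.0076. IL4 raised 2 of the 5 and lowered 1 in shGFP cells, where 26.9% of all tested genes were called, with a median log2 change of 0.04 beside -0.000495 for all genes. Those raised were Lrp1, an endocytic receptor that clears protease and inhibitor complexes (0.56, SE 0.14, limma adjusted p = 0.00599), and Plgrkt, a plasminogen receptor (0.09, SE 0.026, adjusted p = 0.0127, lost with a trended prior at 0.0508). Eno1, the glycolytic enzyme enolase 1, which also binds plasminogen at the cell surface, fell by 0.06 (SE 0.019, limma adjusted p = 0.0331). After quantile normalization 2 were higher and none lower, Eno1 turning to 0.03 (adjusted p = 0.335). The Eno1 call was also lost without untreated shGFP replicate 3 or 4 or IL4-treated replicate 1, 3 or 4 (adjusted p from 0.0541 to 0.112), with a stricter filter (0.0715), with only the groups compared (0.0767) and with a replicate block (0.0509).

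In shKDM1A cells IL4 raised 3 of the 5 fibrinolysis genes and lowered none, where 27.1% of all tested genes were called, with a median of 0.10. They were Anxa2 and S100a10, the subunits of a cell surface complex that binds plasminogen and its activators, and Eno1. The log2 fold changes were 0.23 for Anxa2 (SE 0.023, limma adjusted p = 9.89e-07), 0.10 for S100a10 (SE 0.028, adjusted p = 0.0101) and 0.08 for Eno1 (SE 0.019, adjusted p = 0.00697). For Lrp1 a larger log2 difference of 0.35 (SE 0.14) did not pass (limma adjusted p = 0.0694). The Lrp1 responses of the 2 lines were not shown to differ (-0.21, limma adjusted p = 0.578). The count was 4 higher with a stricter filter, with a replicate block and without IL4-treated shKDM1A replicate 1.

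Of this list, 3 genes were higher in shKDM1A than in shGFP cells both without IL4 and with it: Anxa2, S100a10 and Eno1. With IL4 1 gene, Plgrkt, was lower (-0.12, limma adjusted p = 0.001, named after its value was seen). All tested genes were called at 38.2% and 40.7%, and the list had medians of 0.18 and 0.31 beside -0.0027 and -0.0024 for all genes. Anxa2 had values of 12.99 to 13.07 in untreated shGFP cells, 13.04 to 13.08 with IL4, 13.33 to 13.36 in untreated shKDM1A cells and 13.55 to 13.64 with IL4. Both shKDM1A groups thus lay above both shGFP groups. It rose by 0.33 without and 0.53 with IL4 (SE 0.023, limma adjusted p = 7.36e-09 and 2.44e-11), S100a10 by 0.26 and 0.41 (SE 0.028, limma adjusted p = 1.3e-06 and 4.78e-09) and Eno1 by 0.18 and 0.31 (SE 0.019, limma adjusted p = 1.65e-06 and 1.57e-09). Quantile normalization brought the Eno1 changes to 0.10 and 0.13 (adjusted p = 0.000323 and 2.4e-05), and the medians of the list, which are Eno1's own values, with them. Plaur, the urokinase receptor, rose in the same 2 comparisons, while Plau did not.

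In the difference in IL4 response 3 of the 5 genes were called, all higher, where 6.13% of all genes were called, with a median of 0.14 beside -0.0015 (2 higher and a median of 0.03 after quantile normalization). The responses were larger in shKDM1A cells by 0.20 for Anxa2 (limma adjusted p = 0.00204), 0.15 for S100a10 (adjusted p = 0.033) and 0.14 for Eno1 (adjusted p = 0.00838; 0.03 and 0.534 after quantile normalization). That of Plau, given above, was smaller. The S100a10 call was lost (adjusted p from 0.0531 to 0.0684) without untreated shGFP replicate 1 or 4, any 1 of the 4 IL4-treated shGFP libraries, or untreated shKDM1A replicate 2 or 4.

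**Figure D3:**
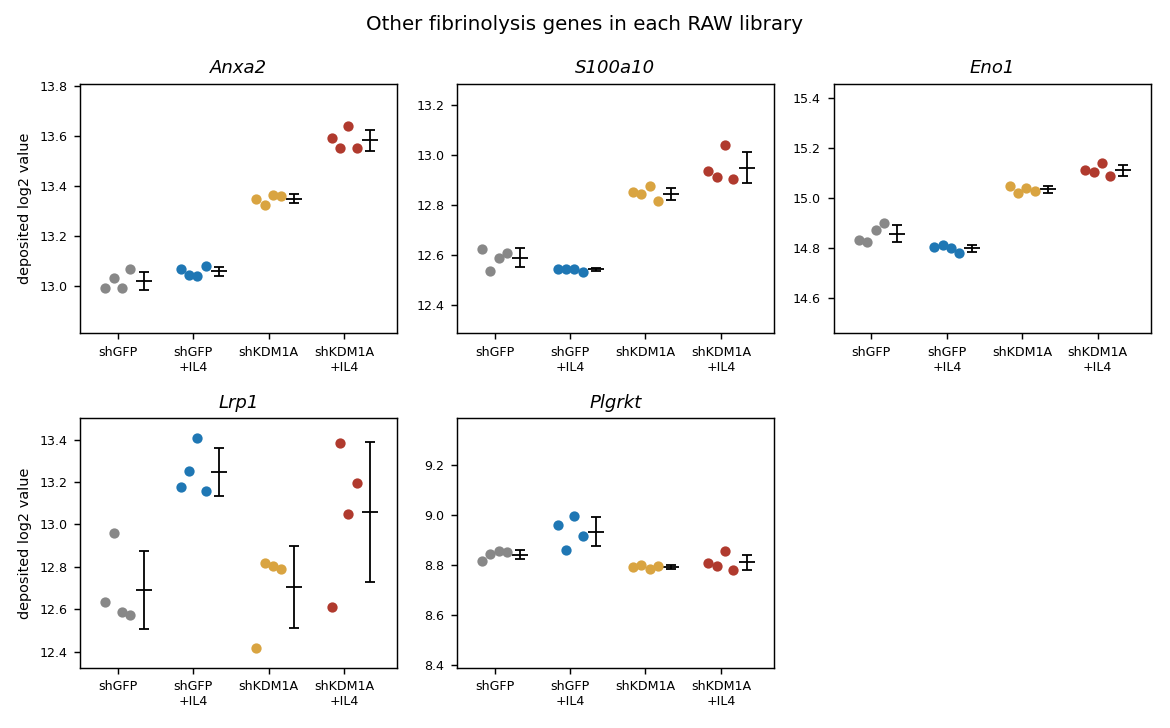
Deposited log2 value (vertical axis) of the 5 tested fibrinolysis genes outside the set in each of the 16 RAW libraries (points), with the group mean and SD (n = 4) beside them. Anxa2, S100a10 and Eno1 are highest in shKDM1A cells with IL4, where Anxa2 reaches 13.55 to 13.64, and the libraries of Lrp1 scatter widely, with an SD of up to 0.33.

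Among 36 other coagulation genes, 17 were tested and 12 were listed at 0 in all libraries, F5, F11, Fga and Fgg among them. The prothrombin gene F2 stayed between -1.37 and -1.35. IL4 raised 1 and lowered 2 of the 17 in shGFP cells, with a median log2 change of -0.0031 (26.9% of all tested genes were called), and raised 2 and lowered 1 in shKDM1A cells, with a median of 0.02 (27.1% of all tested genes). In shGFP cells these were Gas6, a vitamin K-dependent ligand of the TAM receptors (-0.51, SE 0.041, limma adjusted p = 6.41e-08), Ano6, a scramblase that exposes phosphatidylserine, on which clotting factors assemble (0.29, SE 0.035, adjusted p = 9.4e-06), and Lman1, a cargo receptor for factors V and VIII (-0.11, SE 0.024, adjusted p = 0.00236). In shKDM1A cells Gas6 fell by 0.55 and Ano6 rose by 0.31 (limma adjusted p = 2.85e-08 and 5.43e-06), and Serpinc1, the antithrombin gene, rose by 0.10 (adjusted p = 0.0224). The Serpinc1 call was lost without untreated replicate 3 (0.08, adjusted p = 0.0763) or IL4-treated replicate 4 (0.07, adjusted p = 0.0667) and when only the groups compared were fitted (adjusted p = 0.0736). The count in shKDM1A cells was 4 higher and 1 lower after median centring, 4 higher and 2 lower after quantile normalization, and 1 to 4 higher and 1 or 2 lower when single libraries were left out: 3 and 2 without IL4-treated shKDM1A replicate 1, 4 and 2 without replicate 2, and 1 and 1 without replicate 4.

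shKDM1A cells had 6 of the 17 coagulation genes higher and 3 lower without IL4, and 10 higher and 4 lower with IL4, with medians of 0.04 and 0.10. Over all tested genes 38.2% and 40.7% were called in these comparisons. After quantile normalization the counts were 4 higher and 4 lower, and 7 higher and 3 lower, with medians of 0.03 and 0.06. The count with IL4 was 6 higher and 3 lower without IL4-treated shGFP replicate 1, and 6 higher and 2 lower without IL4-treated shKDM1A replicate 4 or when only the groups compared were fitted. It was 8 higher and 2 lower without IL4-treated shGFP replicate 2, 9 higher and 1 lower without IL4-treated shGFP replicate 4 or with no filter, and 10 higher and 1 lower without IL4-treated shKDM1A replicate 3. The largest were Vwf, the von Willebrand factor gene (0.30 without and 0.22 with IL4, limma adjusted p = 7.07e-05 and 0.00122), and the vitamin K epoxide reductases Vkorc1 (0.25 and 0.31, adjusted p = 2.02e-05 and 1.71e-06) and Vkorc1l1 (0.23 and 0.22, adjusted p = 0.000126 and 0.000183). Factors VII and X, which depend on vitamin K for their carboxylation, did not themselves pass. Vitamin K-dependent Gas6 was lower with IL4 (-0.12, limma adjusted p = 0.032). Pros1 (-0.14 and -0.12), Proz (-0.12 and -0.11) and Tfpi (-0.14 and -0.09) were lower without and with IL4. Limma adjusted p for these ran from 0.000126 to 0.0416. For the difference in IL4 response limma called 0 of the 17, beside 6.13% of all tested genes, and 0 had an unadjusted p under 0.05 (median 0.02).

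A list of relatives of Tgm2 and Thbs1 and of receptors of thrombospondin 1 gave 5 tested genes of 13, and 6 were at 0 in all libraries. The tested relatives, Tgm4, Thbs3 and Comp, were not called in any of the 5 comparisons, and every call in the list came from the receptors Cd36 and Cd47. The scavenger receptor Cd36, a receptor of thrombospondin 1, rose 1.73 on the log2 scale with IL4 in shGFP cells and 1.40 in shKDM1A cells (SE 0.021, limma adjusted p = 8.67e-18 and 2.44e-16), the response being smaller in shKDM1A cells by a difference of -0.33 (adjusted p = 8.41e-06, limma). Cd36 was also 0.32 higher in untreated shKDM1A cells (limma adjusted p = 4.63e-09). With IL4 its level was not shown to differ between the lines (log2 difference -0.02, limma adjusted p = 0.559). The means with IL4 were 13.58 in shGFP and 13.56 in shKDM1A cells. The smaller response thus went with the higher untreated level, and no lower level with IL4 was shown. Cd47, another thrombospondin receptor, fell by 0.17 with IL4 in shGFP cells (limma adjusted p = 0.000598) and was higher in shKDM1A cells by 0.13 without and 0.26 with IL4 (limma adjusted p = 0.00235 and 2.99e-06). In the order of the 5 comparisons, 1, 1, 2, 1 and 0 of the 5 genes were higher and 1, 0, 0, 0 and 1 lower, beside 26.9%, 27.1%, 38.2%, 40.7% and 6.13% of all tested genes called, with median log2 changes from -0.01 to 0.05. Quantile normalization gave 1 higher and 1 lower for shKDM1A with IL4, and the difference in IL4 response had 1 higher and 1 lower without IL4-treated shGFP replicate 2.

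Of 13 other clade B serpins, the family of Serpinb2, 9 were tested. IL4 raised 3 and lowered none in shGFP cells, and raised 2 and lowered 3 in shKDM1A cells, with medians of 0.01 and -0.0074, where 26.9% and 27.1% of all tested genes were called. In shKDM1A cells 1 was raised in place of 2 without untreated shKDM1A replicate 1, 2 or 3 or IL4-treated shKDM1A replicate 1, with no filter, and with only the groups compared. Serpinb6b rose by 0.24 with IL4 in shGFP cells (SE 0.048, limma adjusted p = 0.00141) but fell by 0.32 in shKDM1A cells (adjusted p = 9.95e-05, limma), and the difference of -0.55 passed (limma adjusted p = 0.000169). Serpinb8 rose with IL4 by 0.22 and 0.39 (limma adjusted p = 0.000198 and 3.88e-07). Serpinb9, an inhibitor of granzyme B, rose by 0.13 in shGFP cells (limma adjusted p = 0.0259; 0.0588 and 0.0889 without untreated replicate 1 or 2 and 0.0899 without IL4-treated replicate 4) but fell by 0.15 in shKDM1A cells (adjusted p = 0.00828), and the difference of -0.28 passed (adjusted p = 0.00797). Serpinb1c fell by 0.27 with IL4 in shKDM1A cells (limma adjusted p = 9.17e-05).

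Without IL4, 2 of the 9 serpins were higher and 1 lower in shKDM1A cells (38.2% of all tested genes were called), and with IL4 3 were higher and 2 lower (40.7% of all tested genes), with medians of 0.05 and 0.01. Quantile normalization left 1 higher and 1 lower without IL4, the Serpinb1c call being lost (adjusted p = 0.0515), and brought the medians to 0.03 and -0.00017. With a stricter filter 7 were tested, of which 3 were higher and 1 lower with IL4. Serpinb6b was 0.85 higher without IL4 and 0.30 higher with it (SE 0.048, limma adjusted p = 4.89e-10 and 0.000105). In untreated shKDM1A cells Serpinb12 fell by 0.19 and Serpinb1c rose by 0.15 (limma adjusted p = 0.00106 and 0.00797), and with IL4 Serpinb9 was lower, by -0.33, and Serpinb8 higher, by 0.26 (adjusted p = 5.83e-06 and 2.07e-05). For the difference in IL4 response 3 of the 9 were called, all lower, against 6.13% of all tested genes, with a median of -0.04, and 1 higher and 2 lower after median centring or without untreated shKDM1A replicate 1 or IL4-treated shKDM1A replicate 2. The count was 1 higher and 3 lower without untreated shGFP replicate 1 and with a trended prior. The weakest of the 3, Serpinb1c (-0.20, limma adjusted p = 0.0498), had an adjusted p above 0.05 in 16 of 23 alternatives (from 0.0561 to 0.0956). Clade B serpins have close relatives in the mouse, between which reads may be divided, so that the counts of single family members are uncertain.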

How the data were processed

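RNA-seq of 16 RAW libraries was used, in 4 groups taken from the labels. The authors aligned reads to mm9 with HISAT2 and Bowtie2 and counted exon reads per gene with HOMER, strands together. The values deposited are log2 levels per library, moderated for low counts by a transformation not named in the sources used here; decimals are written with commas. They are not read counts, so no count model was used. The BMDM table holds nothing but the authors' own comparisons (log2 fold changes with raw and adjusted p-values). Such columns, in both tables, were not used, and the BMDM test that was planned could not be made.

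Genes that did not reach 1 in 4 or more libraries were removed. Group means of all 16 libraries were fitted with limma 3.58.1 (lmFit, eBayes) in R 4.3.3, with Benjamini-Hochberg adjustment over 12905 genes at 0.05, after tests on simulated data. No pseudocount was added. Genes were named as follows: all members, Kdm1a, in each list the 3 largest changes called per comparison, and the 2 genes most correlated with each member. Plg, Plat, F2 and other list genes given as not tested, Plgrkt for shKDM1A with IL4, the markers Lyz2, Csf1r, Adgre1 and Mertk, the uncalled relatives of Tgm2 and Thbs1, and Rprd1b, which overlaps Tgm2, were named after their values were seen. So were the uncalled changes of Lrp1 and Cd36, and the coagulation genes given as lower in shKDM1A cells. Members and lists were chosen with earlier results of these data known. Promoter windows were read with Python 3.11.15 and pandas 2.3.3, and figures drawn with matplotlib 3.10.9. Alternatives were other filters, scalings and priors, a fold limit, fewer groups, a replicate block and leaving out each library. Replicate numbers did not pair libraries. A gene of the fibrinolysis list is not reported here and was left out of its counts.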

Additional observations from a re-analysis of the deposited data

Results flagged for a closer look

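The IL4 response of Plau differed between the lines (log2 difference -0.22, limma adjusted p = 0.0107), with all 4 IL4 libraries above all 4 untreated ones in each line. Of 32 sets of 4 libraries looked at for a value far from the rest, 3 had one, where about 1 in 20 would if values were normally distributed. All 3 were of lowly expressed genes, whose values are drawn together, so that this rate may not hold for them. F7 was at 1.71 in IL4-treated shKDM1A replicate 2 and at 1.65 to 1.66 in the other 3. F3 was at -0.559 in the same library and from -0.570 to -0.569 in the others. F13a1 was at -2.264 in untreated shGFP replicate 1 and near -2.266 in the others. All 3 gaps were under 0.06 on the log2 scale, and F3 and F13a1 were under the filter on low values.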

How the results depend on the processing

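A limit of 0.5 on the absolute log2 fold change left 0 called members in all 5 comparisons, and 174, 141, 337, 319 and 17 genes in all. Every other call of Tgm2, Plau and Plaur was kept under the other alternatives run, with adjusted p up to 0.0293. The IL4 response of Plau differed by -0.25 to -0.19 when single libraries were left out. With a replicate block the 5 comparisons called 2, 3, 2, 3 and 1 members and 3430, 3459, 4882, 5212 and 732 genes; deviations of same-numbered libraries correlated between -0.343 and 0.273, so the block was not used. With no filter F3 was also called, lower in untreated shKDM1A cells by -0.02 (limma adjusted p = 0.0121), giving 3 members there, beside 4658 genes in all. Signs turned for values that passed no test and, under quantile normalization, for the IL4 change of Eno1 in shGFP cells (0.026). For the difference in IL4 response, F10 came to 0.0033 under median centring and 0.0070 under quantile normalization, and from -0.019 to 0.0039 without single libraries; F7 came to 0.0065 under median centring and from -0.017 to 0.0043 without single libraries. Kdm1a for IL4 in shKDM1A cells came to -0.0038 without untreated shKDM1A replicate 3, and up to 0.039 without other single libraries. The adjusted p of Kdm1a for IL4 in shGFP cells, 0.0481 (log2 -0.08), was above 0.05 in 17 of 24 alternatives (0.0517 to 0.139).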
